A study of Homo sapiens with 6 samples.

Results

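The genes examined were 10 members of the BCL2 family, the proteins that decide whether the outer mitochondrial membrane is opened during apoptosis, together with the long and short isoforms of MCL1 and BCL2L1. They were found by mapping the gene identifiers of the deposited tables to GENCODE release 29, and all 10 of 10 were present among 58780 genes. The 10 genes have 91 annotated transcripts, of 206761 in all. RNA came from HCT116, a human colorectal carcinoma cell line, in 2 groups of 3 libraries each, cells given auxin for 16 h and cells given DMSO, the solvent control, and each library is labelled as a separate biological replicate. Auxin, a plant hormone, is often given to engineered cells to have a degron-tagged protein destroyed. The labels name neither a tagged protein nor any other genetic change in the cells, and the series title concerns nuclear speckles, the nuclear bodies rich in RNA and splicing factors. The control group shows DMSO alone, so effects of auxin itself and of the loss of a tagged protein cannot be told apart.

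Pro-survival members such as MCL1, BCL-XL (encoded by BCL2L1) and BCL-W (BCL2L2) hold the effectors BAX and BAK in check. The BH3-only members, here BIM (BCL2L11), BID, BAD, NOXA (PMAIP1) and PUMA (BBC3), either neutralise the pro-survival members or activate the effectors directly. Splicing matters in this family because MCL1 and BCL2L1 each give a long pro-survival form and a short form that promotes death, and because BAX and BID also have several forms.

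The isoforms differ at the following splice junctions, which are shown because the transcript results rest on them. Sequences were read from the GENCODE release 29 transcripts (GRCh38), 5′ to 3′ on the strand of the gene, and all bases shown are coding. For MCL1, on the minus strand of chromosome 1, the short form MCL1-201 joins the first exon to the last and leaves out the middle exon of 248 bases (chr1:150578244-150578491). Capitals mark the exon on the far side of the junction.
MCL1-202, long, first exon to middle exon: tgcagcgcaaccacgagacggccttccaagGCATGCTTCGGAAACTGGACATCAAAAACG
MCL1-201, short, first exon to last exon: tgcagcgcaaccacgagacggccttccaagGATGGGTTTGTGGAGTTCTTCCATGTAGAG
For BCL2L1, on the minus strand of chromosome 20, the short form BCL2L1-202 ends the coding exon at an inner 5′ splice site and lacks 189 bases (chr20:31721655-31721843). Capitals mark the first bases after that site in each form.
BCL2L1-201, long, reading on: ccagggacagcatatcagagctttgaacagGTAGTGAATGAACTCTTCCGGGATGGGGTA
BCL2L1-202, short, next exon: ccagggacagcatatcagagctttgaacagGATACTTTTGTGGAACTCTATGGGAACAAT
The stretches left out of the short forms hold the coding sequence of the BH1 domain, which lines the groove that binds BH3 peptides. Capitals mark the longest run of letters the 2 stretches share, 9 bases.
MCL1 middle exon: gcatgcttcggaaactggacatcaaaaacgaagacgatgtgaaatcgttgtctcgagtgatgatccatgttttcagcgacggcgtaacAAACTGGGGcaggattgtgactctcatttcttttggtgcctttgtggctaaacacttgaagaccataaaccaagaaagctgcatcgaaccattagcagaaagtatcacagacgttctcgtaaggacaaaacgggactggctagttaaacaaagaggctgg
BCL2L1 stretch: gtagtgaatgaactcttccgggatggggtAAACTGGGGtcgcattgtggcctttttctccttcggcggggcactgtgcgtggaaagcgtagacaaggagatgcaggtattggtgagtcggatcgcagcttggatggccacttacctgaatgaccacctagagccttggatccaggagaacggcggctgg

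For BAX, on the plus strand of chromosome 19, the forms differ at the last intron, 617 bases at chr19:48960915-48961531, which BAX-202 removes and BAX-201 keeps. BAX-202 has 192 codons and corresponds to the alpha form, whose last exon encodes the membrane anchor, and BAX-201 has 218 codons because its reading frame runs on into the intron. Other transcripts leave out the second and the third exons (chr19:48955548-48955599 and chr19:48955687-48955833), the third of which holds the coding sequence of the BH3 domain. Capitals mark what follows the shared exon.
BAX-202, last intron removed: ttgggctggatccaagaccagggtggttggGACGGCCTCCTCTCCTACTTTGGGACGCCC
BAX-201, last intron kept: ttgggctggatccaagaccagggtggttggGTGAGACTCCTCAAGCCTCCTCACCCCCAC
BAX-202, first exon to second: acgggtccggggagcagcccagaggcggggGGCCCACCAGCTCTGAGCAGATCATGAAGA
BAX-209, first exon to the next kept exon: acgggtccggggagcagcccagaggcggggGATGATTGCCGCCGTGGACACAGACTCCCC
For BID, on the minus strand of chromosome 22, the forms compared differ in whether they hold the third exon, 211 bases at chr22:17743803-17744013. BID-203 and BID-211 also lack the second exon, 70 bases at chr22:17750105-17750174, which BID-212 keeps. BID-205 and BID-209, which hold the third exon, have 195 codons, and BID-203, BID-211 and BID-212, which lack it, have 99. The coding sequences of these 99 codons start inside the exon that follows, of which 75 of 140 bases are coding. Every codon before that start is absent. Capitals in this exon mark codons 57 to 60, after which caspase-8 cuts the protein to release its active part. In the second line capitals mark the next exon.
BID, the third exon: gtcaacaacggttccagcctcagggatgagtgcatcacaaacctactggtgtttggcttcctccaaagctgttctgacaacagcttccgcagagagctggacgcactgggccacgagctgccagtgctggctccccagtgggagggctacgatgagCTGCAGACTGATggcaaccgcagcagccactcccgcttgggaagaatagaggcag
BID-209, from the third exon into the next: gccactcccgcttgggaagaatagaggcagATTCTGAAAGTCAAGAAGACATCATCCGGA
These letters of codons 57 to 60 are in the coding sequences of BID-205 and BID-209 and absent from those of BID-203, BID-211 and BID-212.

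Total expected counts ranged from 270778956 to 546126805 in the DMSO libraries and from 234035407 to 625892507 in the auxin libraries, with replicate 1 the deepest of both groups. Of 19725 genes tested with edgeR's quasi-likelihood test, 52.3% had an adjusted p under 0.05, called here; 25.4% were called higher after auxin and 26.9% lower. The fold change was related to base composition. Among the fifth of genes with the highest GC content, 57.7% to 83.9%, the median log2 fold change was -0.60 and 52.6% were called lower. BAD, BID, BAK1, BAX and BBC3 are among them. Fold changes of the members are therefore given also with offsets corrected for GC content where these change a call, a sign or the value by over 1.5 times. Such offsets by construction take out any difference that runs with GC content. The epithelial markers EPCAM, CDH1, KRT8, KRT18 and KRT19 were at 125.8 CPM or more in every library and 5 of 5 were called higher after auxin, by 0.29 to 0.54 on the log2 scale. The leukocyte marker PTPRC and the hepatocyte marker ALB stayed at or under 0.113 CPM, PECAM1 (endothelium) at or under 0.0589 CPM, and COL1A1 (fibroblasts) was between 1.21 and 5.14 CPM.

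Of the 10 genes, 4 were called higher after auxin (BCL2L1, BAX, BID and MCL1), 4 lower (BCL2L2, BAK1, BAD and BCL2L11) and 2 were not called (PMAIP1 and BBC3). The share called, 8 of 10, stands beside 52.3% of all genes. The median log2 fold change of the 10 was 0.12 against 0.025 over all genes tested. One member, BCL2L2, was called with a change of at least 2-fold, beside 13.3% of genes called at least 2-fold lower and 6.55% at least 2-fold higher. Levels in CPM, which are counts adjusted for library size and TMM factors, did not overlap between the groups in 8 of the 10, beside 60.3% of all genes. In TPM, the authors' unit that is scaled to transcript length and depth, the groups did not overlap in 4 (BCL2L1, BCL2L2, BAK1 and BAD), beside 37.5% of all genes. The call of each was the same with the replicate number as a block, except for PMAIP1. In bulk RNA a change in the number of cells that express a gene and a change in RNA per cell cannot be told apart.

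**Figure D1:**
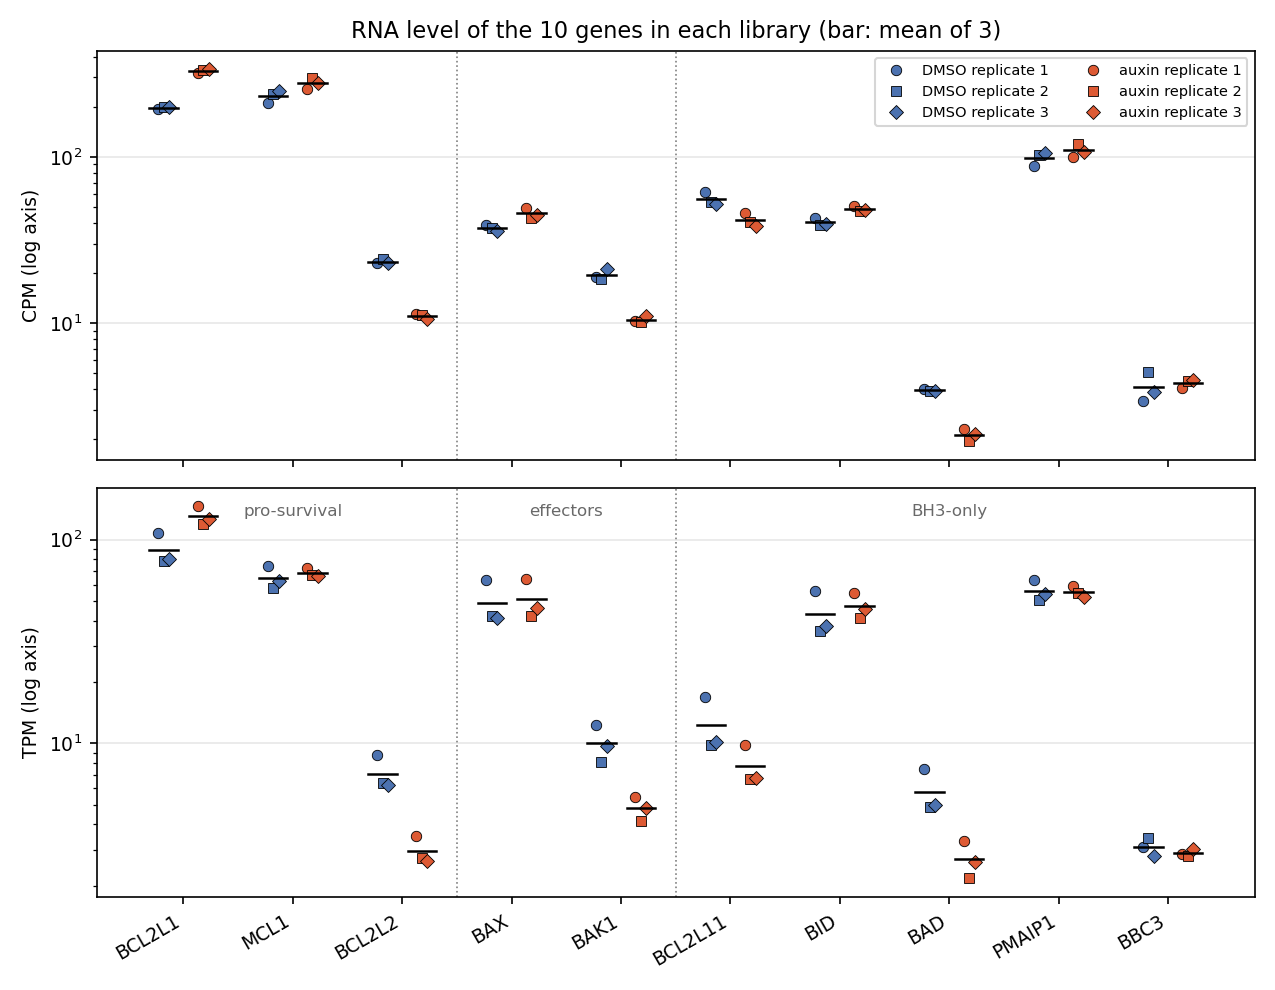
Level of each gene in the 6 libraries, in CPM (top) and TPM (bottom), both on log axes, with DMSO libraries in blue, auxin libraries in orange, 1 symbol per replicate number and a bar at the mean of 3. In CPM the groups are apart for 8 of the 10 genes, and in TPM for BCL2L1, BCL2L2, BAK1 and BAD, with replicate 1 high in TPM in both groups for most genes.

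Among the pro-survival genes, BCL2L1 rose and BCL2L2 fell, and both calls were kept under each of the 18 alternatives tried. BCL2L1 (ENSG00000171552.12, chr20:31664452-31723989, minus strand) was at 193, 201 and 199 CPM in DMSO replicates 1 to 3 and at 321, 333 and 336 CPM in auxin replicates 1 to 3. All 3 auxin libraries lay above all 3 DMSO libraries. Means were 197.6 ± 4.2 and 329.9 ± 8.2 CPM (SD, n = 3 per group). On the log2 scale BCL2L1 was 0.74 higher (SE 0.055, edgeR adjusted p 4.52e-05). Of the antisense genes that overlap it, BCL2L1-AS1 had 0 CPM in every library and ABALON had 0.953 CPM at most. BCL2L2 (ENSG00000129473.9, chr14:23298790-23311759, plus strand) was at 22.9, 24.5 and 23.1 CPM in DMSO and 11.4, 11.2 and 10.6 CPM after auxin. The auxin libraries all lay under the DMSO libraries, with a gap far wider than the spread within either group. Its log2 fold change was -1.09 (SE 0.068, edgeR adjusted p 2.24e-05), the most negative of the 10. BCL2L2 shares 4925 bases with the read-through gene BCL2L2-PABPN1 on the same strand, which was at 0.551 CPM or less.

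MCL1 (ENSG00000143384.12, chr1:150574551-150579738, minus strand), whose protein turns over fast, was at 211, 238 and 249.6 CPM in DMSO and 254, 296.5 and 279 CPM after auxin. The lowest auxin library lay just above the highest DMSO library. The log2 fold change was 0.25 (SE 0.088, 95% interval 0.0026 to 0.49, edgeR adjusted p 0.0496), the member nearest the threshold. The call was lost without DMSO replicate 1, 2 or 3 and without auxin replicate 2 or 3, with adjusted p-values of 0.0575 to 0.166 in these 5 fits. It was also lost with GC-corrected offsets, at 0.069 (adjusted p 0.534), and on log2(TPM + 1), at 0.087 (adjusted p 0.685), and it was kept under 6 of 18 alternatives.

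The isoforms of MCL1 did not show a shift that passed a test. The long form MCL1-202 (350 codons) was at 55.9, 35.5 and 39.7 TPM in DMSO and 55.5, 42.0 and 43.8 TPM after auxin. The TPM values overlapped, and the level from counts was 0.29 higher in log2 terms (SE 0.066, edgeR adjusted p 0.0275). That call was lost in each of the 6 fits without 1 library, at adjusted p-values of 0.0531 to 0.106. MCL1-204, a form of 197 codons, was at 16.0, 20.1 and 20.7 TPM in DMSO and 15.1, 22.4 and 20.4 TPM after auxin, with overlapping groups and an adjusted p of 0.772. The short form MCL1-201 had 155.9, 57.7 and 64.8 expected counts in DMSO and 84.3, 38.1 and 45.2 after auxin, against 42901.6 to 130484.2 for the long form. As a share of long and short counts together it was 0.156%, 0.132% and 0.142% in DMSO and 0.0646%, 0.0807% and 0.105% after auxin. All 3 auxin shares lay under all 3 DMSO shares. The log2 ratio of short to long differed by -0.81, with an exact two-sided permutation p of 0.1, the smallest that 3 against 3 can give. In the fits over all transcripts the short form was not called, neither for its level (-0.50, SE 0.29, edgeR adjusted p 0.304) nor for its odds within the gene (-0.77, SE 0.29, limma adjusted p 0.182). The posterior SD of its count, the authors' measure of uncertainty in assigning reads, was 8.61 to 16.2 counts.

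BCL2L1 transcripts rose together, long and short alike. The annotation has 2 long transcripts of 699 coding bases that differ outside the coding sequence. BCL2L1-203 was at 51.1, 36.9 and 34.8 TPM in DMSO and 69.97, 57.0 and 63.2 TPM after auxin, and BCL2L1-201 at 41.1, 27.9 and 32.1 against 55.7, 43.8 and 45.5 TPM. The short BCL2L1-202 was at 5.82, 3.92 and 3.67 TPM in DMSO and 8.29, 6.68 and 7.05 TPM after auxin. In all 3 the lowest auxin library lay above the highest DMSO library. Of all genes 37.5% were apart in TPM in either direction, and the share of all transcripts was not counted. The levels changed by 0.82, 0.70 and 0.91 on the log2 scale in that order (edgeR adjusted p 0.00151, 0.00283 and 0.00181). On log2(TPM + 1) these 3 calls were lost, at adjusted p-values of 0.0721, 0.13 and 0.0809. The short form was 5.44%, 5.23% and 4.77% of long and short counts in DMSO and 5.68%, 5.70% and 5.59% after auxin. The auxin shares lay above the DMSO shares by a small margin, a log2 ratio difference of 0.15 with an exact two-sided permutation p of 0.1, the smallest possible. The odds of the short form within the gene were not called (0.16, SE 0.13, limma adjusted p 0.529), nor were those of any of the 9 BCL2L1 transcripts. Of the other 6 transcripts, all annotated with incomplete coding sequence, BCL2L1-206 was called higher (1.79, SE 0.41, edgeR adjusted p 0.0291), a call lost in 5 of 6 fits without 1 library, all but that without auxin replicate 1 (adjusted p 0.0813 to 0.107). BCL2L1-204, BCL2L1-205, BCL2L1-207, BCL2L1-208 and BCL2L1-209 were not called.

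**Figure D2:**
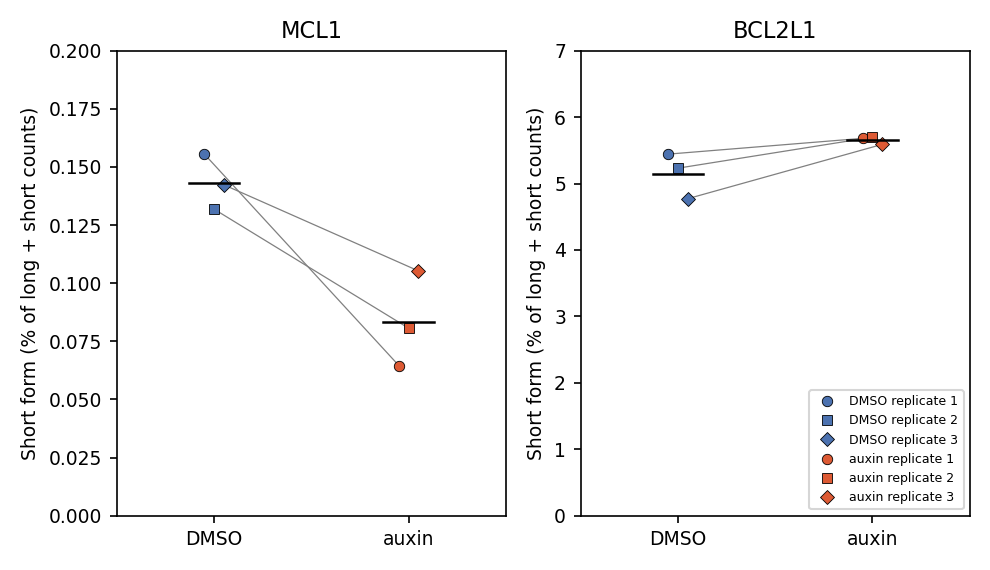
Short form of MCL1 (left) and BCL2L1 (right) as a percentage of the expected counts of long and short forms, with 1 point per library, a bar at the group mean and grey lines joining equal replicate numbers. In MCL1 the share is 0.143% in DMSO and 0.0835% after auxin, and in BCL2L1 5.15% and 5.66%, on axes of different range.

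The effectors moved in opposite directions at the gene level. BAK1 (ENSG00000030110.12, chr6:33572547-33580293, minus strand) was at 18.99, 18.4 and 21.3 CPM in DMSO and 10.4, 10.1 and 11.04 CPM after auxin. The groups were far apart compared with their own spread. The log2 fold change was -0.90 (SE 0.084, edgeR adjusted p 0.000123). With GC-corrected offsets it was -0.29 and not called (adjusted p 0.0896), and with the replicate block added to that correction it was called at the same size (adjusted p 0.000294). Its main transcript BAK1-202 fell by 0.87 on the log2 scale (edgeR adjusted p 0.00311), a value without GC correction, which was not run on transcripts. Neither of the 2 transcripts tested changed in odds.

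BAX (ENSG00000087088.19, chr19:48954815-48961798, plus strand) was at 38.8, 37.2 and 35.6 CPM in DMSO and 49.5, 42.9 and 44.6 CPM after auxin. The groups did not overlap, and the log2 fold change was 0.30 (SE 0.071, edgeR adjusted p 0.0109). Without DMSO replicate 3 the adjusted p was 0.0531, and with scaling by library size only the value was 0.21 (adjusted p 0.174). With GC-corrected offsets the value was 0.92 (adjusted p 1.53e-05). In TPM the groups overlapped, at 63.2, 42.3 and 41.2 in DMSO against 64.0, 42.2 and 46.2 after auxin, and the log2(TPM + 1) fit gave 0.059 (adjusted p 0.893).

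Within BAX the transcripts changed far more than the gene. BAX-202, the alpha form, was at 14.4, 9.86 and 10.1 TPM in DMSO and at 0.63, 0.60 and 0.63 TPM after auxin. The 3 auxin libraries had 235.3, 105.1 and 97.8 expected counts where the DMSO libraries had 4106.6, 1929.4 and 1819.1, with a posterior SD of at most 35.1 counts in the auxin libraries. In log2 terms its level fell by 4.02 (SE 0.17, edgeR adjusted p 0.000179), a 16.2-fold decrease, and its odds within the gene by 4.6 (SE 0.20, limma adjusted p 0.000423). Both calls were kept under each of the 11 alternatives run, with values of -4.09 to -2.92 for the level and -4.69 to -4.41 for the odds. BAX-201, with the last intron kept, was at 25.1, 15.8 and 16.9 TPM in DMSO and 34.4, 24.2 and 26.7 TPM after auxin. As a share of the TPM of BAX it went from 39.7%, 37.3% and 41.1% to 53.7%, 57.3% and 57.7%, without overlap. Its odds rose by 1.49 (SE 0.15, limma adjusted p 0.00299), called under each of the 11 alternatives.

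Transcripts that join the first BAX exon to the fourth also rose. BAX-209 was at 0.89, 0.80 and 1.00 TPM in DMSO and 3.85, 6.08 and 4.88 TPM after auxin, and its odds rose by 2.32 (SE 0.40, limma adjusted p 0.0176). The odds call was lost without DMSO replicate 2, auxin replicate 2 or auxin replicate 3 (adjusted p 0.0576 to 0.0711), while the level call was kept. BAX-213, which has this junction and ends inside the last intron, was at 0.980, 0.120 and 0.0700 TPM in DMSO and 10.0, 2.10 and 3.57 TPM after auxin. Its odds rose by 4.23 (SE 0.90, limma adjusted p 0.0352), and the call was kept in only 1 of 6 fits without 1 library, that without DMSO replicate 1. BAX-205 (odds -0.89, limma adjusted p 0.0394) and BAX-211 (-1.98, adjusted p 0.0352) fell in share. BAX-211 is annotated without a coding sequence. BAX-205 lost its call in 5 of 6 fits without 1 library and BAX-211 in 6 of 6, and BAX-211 also with the replicate block (adjusted p 0.0528). BAX-202 was named by the rule for transcripts, which takes the called transcript with the largest change of share and so also selects on these results. The other BAX transcripts were chosen after their values were seen.

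Summed by structure, transcripts that read into the last BAX intron made up 44.3%, 39.4% and 42.6% of the gene's TPM in DMSO and 73.5%, 65.1% and 68.2% after auxin. Of these only BAX-201 keeps the whole intron, and BAX-210 and BAX-213 end inside it. Transcripts that remove it went from 50.2%, 56.7% and 52.6% to 21.8%, 30.6% and 26.9%. Transcripts that join the first exon to the fourth, BAX-209 and BAX-213, went from 2.96%, 2.17% and 2.60% to 21.7%, 19.4% and 18.3%. Their share of the gene's expected counts was smaller, 0.862%, 0.585% and 0.643% in DMSO and 6.56%, 4.89% and 4.89% after auxin. None of these ranges overlapped. The classes were formed after the transcript values were seen, so they are a description without a test. Reads that lie in exons shared by several transcripts were divided among them by the authors' estimation, and reads that span the junctions were not counted separately here.

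**Figure D3:**
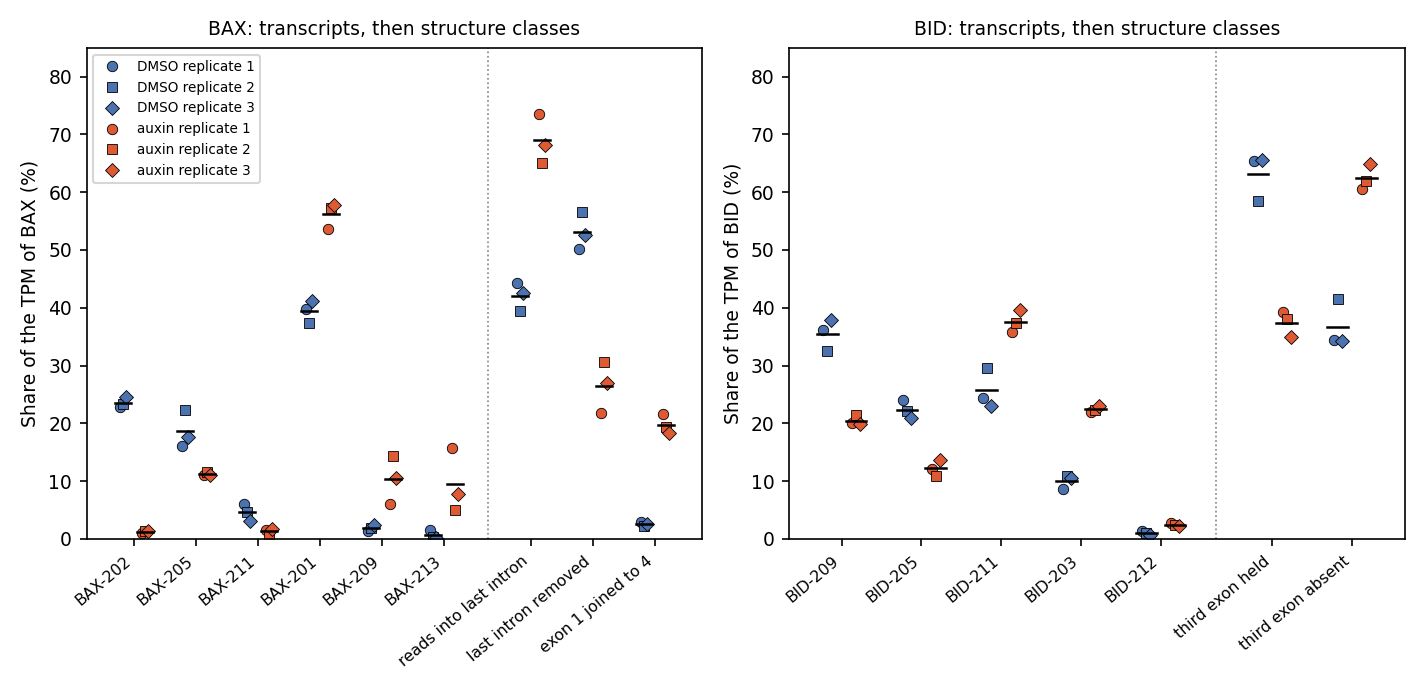
Share of the gene's TPM, in percent, held by single transcripts (left of the dotted line) and by structure classes (right of it) of BAX and BID, with 1 point per library, DMSO in blue, auxin in orange and bars at the means. BAX-202 falls from 23.5% to 1.26%, and BID transcripts of 99 codons without the third exon rise from 36.7% to 62.4%.

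BID, the BH3-only protein that links death receptors to mitochondria, had a similar combination of a small change in the gene and a larger one among its transcripts. BID (ENSG00000015475.18, chr22:17734138-17774770, minus strand) was at 43.0, 38.7 and 39.3 CPM in DMSO and 50.9, 47.0 and 48.1 CPM after auxin. The groups did not overlap in CPM and overlapped in TPM. The log2 fold change was 0.27 (SE 0.064, edgeR adjusted p 0.00989). Without DMSO replicate 2 or DMSO replicate 3 the adjusted p was 0.0628 or 0.0621. With scaling by library size only the value was 0.18 (adjusted p 0.205), on log2(TPM + 1) 0.15 (adjusted p 0.675), and with GC-corrected offsets 0.79 (adjusted p 4.04e-05).

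Among the main BID transcripts, those without the third exon rose and those with it fell. BID-203, without the exon, was at 4.81, 3.87 and 3.93 TPM in DMSO and 12.02, 9.12 and 10.5 TPM after auxin, and the lowest auxin library lay well above the highest DMSO library. In log2 terms its level rose by 1.49 (SE 0.11, edgeR adjusted p 0.000739) and its odds by 1.68 (SE 0.18, limma adjusted p 0.00371). BID-211, also without the exon, rose by 0.86 in level (edgeR adjusted p 0.0129), and its odds changed by 0.63 without a call (limma adjusted p 0.0935). That level call was lost without DMSO replicate 3, auxin replicate 2 or auxin replicate 3 (adjusted p 0.0538 to 0.0611) and on log2(TPM + 1) (adjusted p 0.0783). BID-212, a minor form without the exon at 1.49 TPM or less, rose by 1.55 in level (edgeR adjusted p 0.0129) and by 1.35 in odds (limma adjusted p 0.0247). Its level call was lost without DMSO replicate 2 (adjusted p 0.0617) and on log2(TPM + 1) (adjusted p 0.106), and its odds call in 5 of 6 fits without 1 library. BID-205, with the exon, was at 13.5, 7.87 and 7.83 TPM in DMSO and 6.59, 4.47 and 6.20 TPM after auxin. Its odds fell by 1.32 (SE 0.18, limma adjusted p 0.00772). BID-209, with the exon, was at 20.3, 11.6 and 14.2 TPM in DMSO and 10.98, 8.77 and 9.07 TPM after auxin. Its odds fell by 0.90 (SE 0.14, limma adjusted p 0.0135), a call lost without DMSO replicate 2 or 3 or auxin replicate 2 or 3 (adjusted p 0.0515 to 0.0666). The odds calls of BID-203 and BID-205 were kept under each alternative. The level calls of BID-205 and BID-209 were lost in 5 and 6 of the 6 fits without 1 library. BID-203 was named by the same rule, which also selects on these results, and the other BID transcripts after their values were seen.

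Transcripts that hold the third exon made up 65.4%, 58.4% and 65.6% of the TPM of BID in DMSO and 39.2%, 38.0% and 35.0% after auxin. Protein-coding transcripts of 99 codons without it, mostly BID-203 and BID-211, went from 34.4%, 41.4% and 34.2% to 60.5%, 61.9% and 64.9%. The coding sequences of BID-203 and BID-211 start in the exon after the third. They lack every codon before that start, those of the caspase-8 site shown above and also the codons between that site and the start. They are therefore shorter than the part released by the cut, and whether they are active was not tested. The 2 groups did not overlap for either class. These classes too were formed after the values were seen and carry no test.

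The remaining BH3-only genes were BCL2L11 and BAD, which fell, and PMAIP1 and BBC3, which were not called. BCL2L11 (ENSG00000153094.22, chr2:111119378-111168447, plus strand) was at 61.9, 53.3 and 52.2 CPM in DMSO and 46.0, 40.5 and 38.2 CPM after auxin. The groups did not overlap, and the log2 fold change was -0.43 (SE 0.095, edgeR adjusted p 0.00791). The call was lost with upper-quartile factors, at -0.30 (adjusted p 0.0547), and on the TPM scales. BCL2L11-220 fell by 1.18 and BCL2L11-223 by 0.68 in level (edgeR adjusted p 0.0120 and 0.0260), and no transcript of the gene was called for odds. The call of BCL2L11-220 was lost without DMSO replicate 3 or auxin replicate 3 (adjusted p 0.0519 and 0.0501), and that of BCL2L11-223 in 5 of 6 such fits. BCL2L11 overlaps MIR4435-2HG over 49070 bases on the opposite strand, a gene that was called higher by 0.30, and whether the counting used strand is not given in the sources used here.

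BAD (ENSG00000002330.13, chr11:64269830-64284704, minus strand), which binds BCL-XL and BCL2, was among the lowest of the 10, at 4.04, 3.90 and 3.93 CPM in DMSO and 2.32, 1.95 and 2.14 CPM after auxin. The groups were well apart, and BAD changed by -0.89 in log2 terms (SE 0.11, edgeR adjusted p 0.000462). With GC-corrected offsets the sign turned, to 0.13 (adjusted p 0.461), and with the correction and the replicate block it was 0.13 (adjusted p 0.137). The GC content of its main transcript was 65.8%, the highest of the 10. BAD overlaps GPR137 over 14643 bases on the opposite strand, and GPR137 fell by 2.94 on the log2 scale.

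PMAIP1 (ENSG00000141682.11, chr18:59899948-59904306, plus strand), a p53 target whose protein binds MCL1, was at 87.6, 103 and 105 CPM in DMSO and 100.2, 120.2 and 107 CPM after auxin. The groups overlapped, and the log2 fold change was 0.15 (95% interval -0.12 to 0.42, edgeR adjusted p 0.241). With the replicate block, which took the genes called higher from 5010 to 7005, PMAIP1 was called, at 0.15 (adjusted p 0.0108), with auxin higher in 3 of 3 pairs. With GC-corrected offsets it was 0.073 (adjusted p 0.532), and with these and the block it was 0.075 and not called (adjusted p 0.169). With upper-quartile factors it was 0.27 (adjusted p 0.0266), and on log2(TPM + 1) it was -0.012 (adjusted p 0.963). Nearly all of its RNA was PMAIP1-202, at 98.5% of TPM in DMSO and 99.5% after auxin. PMAIP1-201 was at 0.79, 0.40 and 0.86 TPM in DMSO and 0.230, 0.160 and 0.190 TPM after auxin, and its odds fell by 1.74 (SE 0.32, limma adjusted p 0.0223). That call was lost in 5 of 6 fits without 1 library, all but that without DMSO replicate 2 (adjusted p 0.0542 to 0.0811).

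BBC3 (ENSG00000105327.17, chr19:47220822-47232766, minus strand), also a p53 target, was at 3.43, 5.09 and 3.86 CPM in DMSO and 4.07, 4.47 and 4.57 CPM after auxin. The auxin values fell inside the DMSO range, and the log2 fold change was 0.084 (95% interval -0.36 to 0.53, edgeR adjusted p 0.691). With GC-corrected offsets it was 0.86 and called (adjusted p 0.0117), and without DMSO replicate 1 it was -0.031 (adjusted p 0.881). BBC3-202 was at 1.13 TPM in each of the 3 DMSO libraries and 0.490, 0.590 and 0.530 TPM after auxin. Its odds fell by 1.43 (SE 0.26, limma adjusted p 0.0222), a call lost without DMSO replicate 2 or 3 or auxin replicate 1 or 3 (adjusted p 0.0615 to 0.0781). Its level was not called (-0.91, edgeR adjusted p 0.0698) and was called with the replicate block (adjusted p 0.0173).

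**Figure D4:**
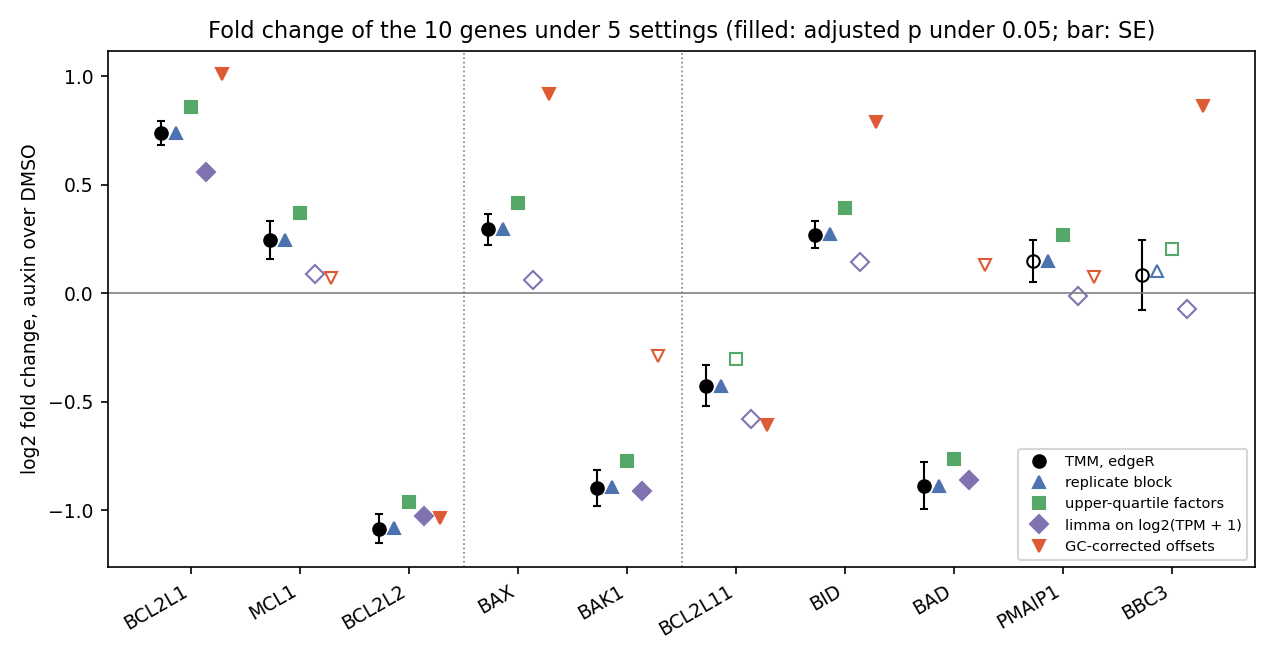
Log2 fold change of auxin over DMSO for the 10 genes under 5 settings, with filled symbols where the adjusted p was under 0.05 and the SE as a bar for the edgeR fit with TMM factors. BCL2L1 and BCL2L2 are filled under all 5 settings, while GC-corrected offsets move BAX, BID and BBC3 up and bring BAD to 0.13.

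Over all 91 transcripts of the 10 genes, 58 passed the filter on low counts. Of these, 21 were called for level, 11 higher and 10 lower, beside 19.7% of all 83072 transcripts tested (8.43% higher and 11.2% lower). For odds within the gene 57 were tested, and 13 were called, 6 higher and 7 lower, beside 10.6% of 76312 (6.5% higher and 4.11% lower). The 13 were 6 of BAX, 4 of BID, 2 of PMAIP1 and 1 of BBC3. MCL1, BCL2L1, BCL2L11, BAK1 and BAD had none, and BCL2L2 had a single tested transcript and could not be tested for odds. Across all genes with a test of odds 29.8% had at least 1 transcript called. Non-coding transcripts, retained-intron forms included, are annotated for 7 of the 10, and their share of the gene's TPM gave exact two-sided permutation p-values of 0.2 to 1 (adjusted over the 7, 0.7 to 1). In BAX that share was 16.7%, 11.9% and 11.1% in DMSO and 11.7%, 8.83% and 10.4% after auxin, with overlapping groups.

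In TPM, where genes can be compared with each other, BCL2L1 was the highest of the 10 in both groups, at a mean of 88.8 TPM in DMSO and 130.4 TPM after auxin. MCL1 (64.8 and 68.6), PMAIP1 (56.0 and 55.3), BAX (48.9 and 50.8) and BID (43.1 and 47.1 TPM) followed. BCL2L11 (12.3 and 7.77), BAK1 (10.0 and 4.80), BCL2L2 (7.10 and 2.96), BAD (5.76 and 2.69) and BBC3 (3.10 and 2.89 TPM) were the lower 5. The order of neighbours was the same in 6 of 6 libraries for every step but 2: PMAIP1 was above BAX in 5 of 6, and BAD above BBC3 in 4 of 6. The ratio of BCL2L1 to MCL1 within a library was 1.45, 1.35 and 1.29 in DMSO and 2.01, 1.79 and 1.90 after auxin (exact two-sided permutation p 0.1, the smallest possible). The ratio of BAX to BAK1 was 5.16, 5.25 and 4.24 in DMSO and 11.7, 10.2 and 9.65 after auxin (exact two-sided permutation p 0.1). Neither ratio overlapped between the groups. The ratios of BCL2L1 to BAX and of MCL1 to PMAIP1 did not overlap either (exact two-sided permutation p 0.1 each), the latter with means of only 1.16 in DMSO and 1.24 after auxin. How often other gene pairs are apart in this way was not counted.

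The genes around the family were described by lists. Their counts stand beside 25.4% of all genes called higher and 26.9% called lower, and their medians beside 0.025 over all genes tested. Of 15 other BCL2 family genes 12 could be tested, of which 4 were called higher and 5 lower, with a median log2 fold change of -0.21. Higher were BCL2L15 (0.80), the BH3-only gene BIK (0.67), BNIP1 (0.51) and BCL2L13 (0.35). Lower were BCL2L12 (-2.52), the BH3-only gene BMF (-1.49), BNIP3 (-0.83), BOK (-0.72) and BCL2 itself (-0.55). BMF was barely expressed, at 0.19 TPM or less in every library. Its call was kept under 16 of 18 alternatives, with values of -1.72 to -0.11. BNIP1 lost its call without auxin replicate 2 or 3 (adjusted p 0.0558 and 0.0593), and BOK turned to 0.32 with GC-corrected offsets (adjusted p 0.00581), where BIK was at 1.02. Of 13 genes of mitochondrial execution 2 were called higher, DIABLO (0.45) and VDAC2 (0.21), and 6 lower, led by APAF1 (-1.63), the scaffold of the apoptosome, HTRA2 (-1.30) and ENDOG (-1.12), with a median of -0.24. With GC-corrected offsets ENDOG was at -0.024 (adjusted p 0.899), and DIABLO (0.33, adjusted p 0.0652) and VDAC2 (0.034, adjusted p 0.698) were not called either; with the block added DIABLO was called (adjusted p 2.55e-06). With the replicate block 5 were called higher, beside 7005 of all 19725 genes with that block. DIABLO and VDAC2 both lost their calls without auxin replicate 2 or without auxin replicate 3, and DIABLO overlaps other protein-coding genes on its own strand.

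The counts of the next lists also stand beside 25.4% of all genes called higher and 26.9% called lower. Of the 10 death receptor genes 5 were called higher, led by the adaptor FADD (0.64), the TRAIL receptor TNFRSF10B (0.61) and the caspase-8 inhibitor CFLAR (0.59), and 2 lower, TRADD (-2.03) and TNFRSF10A (-0.97), with a median of 0.22. With GC-corrected offsets FADD was at 1.24 and TRADD at -1.13, both called. Of 6 inhibitors of apoptosis 5 were tested, and 1 was called, BIRC5, the gene of survivin (-0.55). Of 6 genes that set MCL1 turnover, the deubiquitinases USP13 (0.30) and USP9X (0.25) were called higher and none lower. With GC-corrected offsets none of the 6 was called higher, and with the replicate block 2 were called lower. Of 10 regulators of BCL2L1 and MCL1 splicing 2 were called higher, SF3B1 (0.41) and HNRNPK (0.32), and 3 lower, PTBP1 (-2.23), HNRNPA1 (-0.48) and RBM25 (-0.35). With the replicate block 5 were called lower, beside 6789 of all 19725 genes with that block. USP9X, HNRNPK and HNRNPA1 each lost their call in 5 of 6 fits without 1 library. With GC-corrected offsets SF3B1 was at 0.26 and called, and HNRNPK at 0.17 and not called (adjusted p 0.183), or called with the block added (adjusted p 0.00367).

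**Figure D5:**
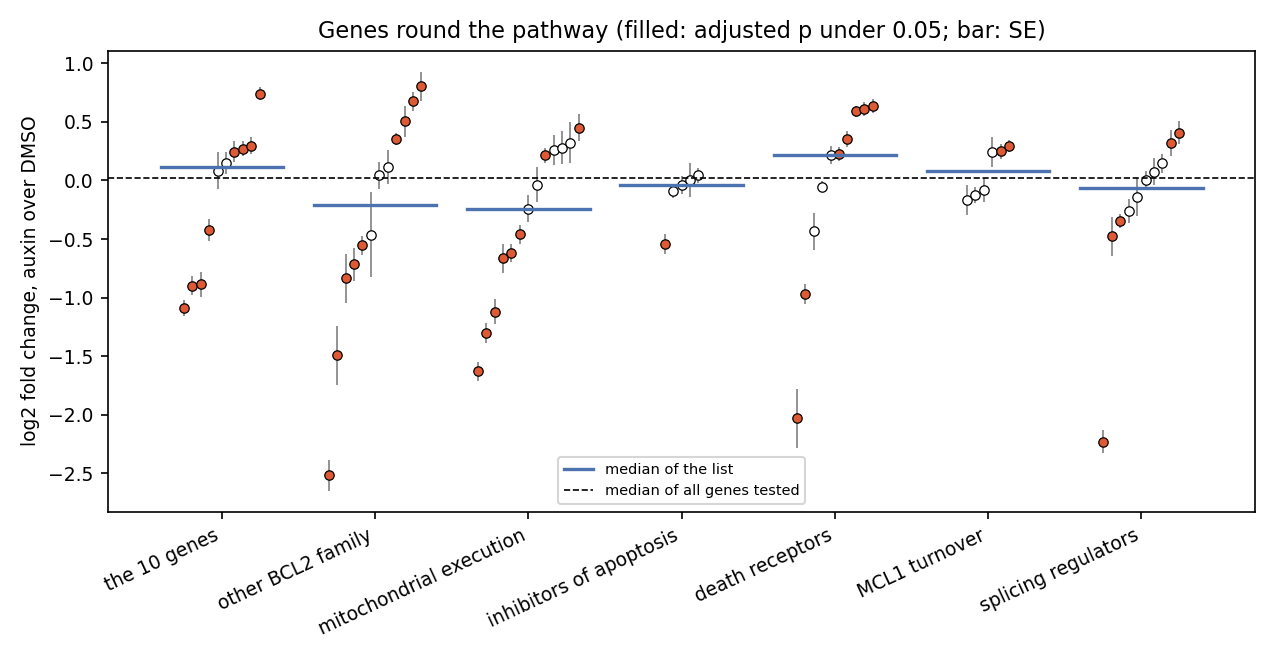
Log2 fold change of auxin over DMSO for each tested gene of the 10 members and of 6 lists, with SE bars, filled points where the edgeR adjusted p was under 0.05, a blue line at the list's median and a dashed line at the median of all genes tested. The lists of other BCL2 family genes and of mitochondrial execution have the lowest medians, -0.21 and -0.24, and reach from 0.80 to -2.52 and from 0.45 to -1.63.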

How the data were processed

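Total RNA from HCT116 cells was depleted of ribosomal RNA, made into stranded paired-end libraries and sequenced on a NovaSeq X Plus, per the labels' protocols. The submitters' processing notes name bcl2fastq 2.20, STAR, DESeq2 and GRCh38. The quantifier and whether it used strand are not given in the sources used here. The authors deposited expected counts and TPM per gene and transcript in 6 libraries. The deposited posterior SD of each count (columns of other units) was read as a description of the estimate's uncertainty. All 58780 gene and 206761 transcript identifiers are in GENCODE release 29, and 746 entries of spike-ins and other sequences, at most 0.00111% of counts, were left out.

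Expected counts were rounded and tested with edgeR 4.0.16 (quasi-likelihood test, TMM factors, filterByExpr, Benjamini-Hochberg over all genes or transcripts, R 4.3.3), and a call is an adjusted p under 0.05. The odds of a transcript against the rest of its gene, as log2 with a count of 0.5 added, were tested with limma 3.58.1. Short to long ratios, TPM ratios and non-coding shares were compared with exact permutation tests over 20 assignments. Alternatives were other scaling factors (upper-quartile, RLE, library size only), DESeq2 1.42.0, other filters, limma on log2(TPM + 1) and log2(TPM + 0.1), offsets corrected for GC content, a replicate block, leaving out each library and, added after the data were seen, leaving out replicate 1 of both groups. The alternatives of the transcript fits held no correction for GC content. Deviations from the group means correlated between equal replicate numbers at r = 0.861, 0.634 and 0.607 across genes. Each was over 0.1, so the numbers were taken to pair the libraries in the replicate block and the comparisons within pairs. The main tests were unpaired. Unequal numbers gave -0.778 to -0.630 with replicate 1 and 0.607 and 0.398 between replicates 2 and 3, so these values set replicate 1 apart and do not single out the pairing of replicates 2 and 3. The scripts were tested on simulated data.

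The members and lists were chosen with earlier results of these data known. All members were named, of each list the called genes with the largest fold (up to 4 in each direction for other family genes and 3 elsewhere), the protein-coding MCL1 and BCL2L1 transcripts with a mean of at least 0.1 TPM, and for other members the called transcript with the largest change of share.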

Additional observations from a re-analysis of the deposited data

How the results depend on the processing

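Of the 10 genes, BCL2L1 and BCL2L2 kept direction and call under each of the 18 alternatives, and the level and odds of BAX-202 under each of 11. With the replicate block PMAIP1 was called at 0.15, 5 genes of mitochondrial execution were called higher, 2 of MCL1 turnover lower and 5 splicing regulators lower, and the block changed no other call of the 10 genes. Over all 19725 genes, 7005 were called higher and 6789 lower with the block, against 5010 and 5311 in the main fit. Within pairs, the short to long ratio was lower in 3 of 3 for MCL1 and higher in 3 of 3 for BCL2L1 (exact sign-flip p 0.25 each, the smallest that 3 pairs can give). MCL1 missed the threshold at 0.25 with RLE factors, 0.25 with DESeq2, 0.22 without a filter, 0.087 on log2(TPM + 1), 0.089 on log2(TPM + 0.1), 0.069 with GC-corrected offsets and 0.069 with these and the replicate block. BCL2L11 missed it at -0.30 with upper-quartile factors, -0.58 on log2(TPM + 1) and -0.63 on log2(TPM + 0.1). BAX and BID missed it at 0.21 and 0.18 with library size only, 0.059 and 0.15 on log2(TPM + 1), and 0.060 and 0.15 on log2(TPM + 0.1). PMAIP1 was called with upper-quartile factors at 0.27 and was -0.012 on both TPM scales, and BBC3 was -0.073 and -0.094 on these. GC-corrected offsets gave BAK1 -0.29, BBC3 0.86, BAD 0.13 and BOK 0.32, and with the replicate block BBC3 0.88, BAD 0.13 and BOK 0.32. The cause was not tested.

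On log2(TPM + 1) and log2(TPM + 0.1) the calls over all genes fell to 970 and 1017 higher and to 2966 and 3223 lower, with the median of all genes shifted by -0.14 and -0.15; with upper-quartile factors it shifted by 0.12, with 6534 higher and 4416 lower. Members called higher numbered 2 with library size only and 1 on both TPM scales, and members called lower 2 with GC-corrected offsets. On both TPM scales 0 genes were called higher among other BCL2 family genes, mitochondrial execution, death receptors, MCL1 turnover and splicing regulators, and 2 other family genes were called lower. Mitochondrial execution had 5 higher with upper-quartile factors, 1 with library size only, 1 without a filter and 0 with GC-corrected offsets. Inhibitors of apoptosis had 2 lower with GC-corrected offsets and 4 with these and the block. MCL1 turnover had 0 higher and 1 lower with GC-corrected offsets, 3 lower with these and the block, and 2 lower with library size only. Splicing regulators had 1 higher with RLE factors and 5 lower with GC-corrected offsets and the block. Without replicate 1 of both groups, chosen after the data were seen, 5 genes of mitochondrial execution were called higher. In that setting 2 inhibitors of apoptosis, 1 gene of MCL1 turnover and 5 splicing regulators were called lower. Over all 19556 genes tested there, 5914 were called higher and 6219 lower. Over 19708 genes, GC-corrected offsets gave 5556 higher and 5050 lower, and 7319 and 6430 with the block added. Over 19725 genes, library size only gave 3894 higher and 5625 lower, and RLE factors 4937 and 5304. Without a filter, 4562 of 34180 genes were called higher and 5354 lower.

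The level of MCL1-202 missed the threshold at 0.30 with RLE factors, 0.12 on log2(TPM + 1) and 0.28 without replicate 1 of both groups, and BCL2L1-201, BCL2L1-203 and BCL2L1-202 missed it at 0.52, 0.63 and 0.62 on log2(TPM + 1). Of the transcripts, 4 were called higher and 6 lower in level on log2(TPM + 1), and without replicate 1 of both groups 2 were called lower in odds and the odds of BAD-201 changed by -0.015. When each library was left out in turn, MCL1 ranged from 0.18 to 0.31, BAX from 0.24 to 0.34, BID from 0.22 to 0.32 and BBC3 from -0.031 to 0.24. In the same fits the level of MCL1-202 ranged from 0.26 to 0.33 and its odds from -0.18 to 0.41, the odds of BAD-201 from -0.14 to 0.22 and those of BAK1-202 from -0.15 to 0.49. Members called higher ranged from 1 to 4, mitochondrial execution genes called higher from 0 to 5, MCL1 turnover genes from 1 to 3 and splicing regulators from 1 to 2. All genes called higher ranged from 3876 of 20136 without DMSO replicate 2 to 4979 of 19998 without auxin replicate 1. Transcripts called ranged from 7 to 10 higher and 5 to 6 lower in level, and from 2 to 5 higher and 2 to 5 lower in odds. Calls over all transcripts were not counted under any of these alternatives. The transcript counts in this paragraph therefore cannot be read as particular to the 10 genes. The short form of MCL1, at 155.9 expected counts or fewer, is limited by depth more than the long form.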
